A study of Homo sapiens with 10 samples.

Results

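The baseline of newly made mRNA was described in untreated 22RV1 cells, an established human cell line of castration-resistant prostate cancer. 2 control libraries out of 10 libraries in the series were used for it. All cells, the controls included, had been given 4-thiouridine for the last 10 min before harvest. The other 8 libraries, 2 for each treatment, came from cells exposed to compounds for 4 h. The treatments were 20 μM SRPIN340, 50 μM Endovion, THZ531 (150 nM in the labels, while the methods state another dose) or THZ531 with Endovion. These libraries serve here mainly to see whether a baseline value returns. Their reads also counted in choosing the intervals of a gene, and they entered some of the alternative fits given below. Genes were taken when both control libraries held at least 200 reads, which kept 8260 of 31015 genes. Of these, 8046 are protein-coding and 166 are long non-coding.

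4-thiouridine enters RNA while it is transcribed, and its alkylated form pairs so that the sequencer reports C at a genomic T. A read with such a difference is called a T>C read, and the T>C share of a gene is the percentage of its reads that are T>C reads. When the amount of an mRNA is steady, mRNAs that are quickly degraded must be quickly replaced, so a short pulse marks a larger part of a short-lived mRNA than of a long-lived one. Transcripts of transcription factors and of signalling inhibitors are classically short-lived and those of the ribosome and of central metabolism long-lived, and AU-rich elements and Pumilio sites in 3′ UTRs are known signals for decay. No unlabelled library was analysed here, so a T>C share also holds T>C differences that did not come from the label, and no half-life was calculated.

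The control libraries held 27236001 and 23154174 reads on genes, of which 1551146 and 1304438 were T>C reads, a share of 5.70% and 5.63%. The cells carried the RNA of their labelled type. Of 11 luminal prostate markers, 8 passed the read limit, among them KRT18 and HOXB13, and the 11 summed to 1986 and 1984 RPM, which are reads scaled to a common library size. All 4 endothelial markers were at 0 reads in both libraries. Leukocyte markers summed to 0.110 and 0, basal markers to 1.84 and 2.42, and fibroblast markers to 3.34 and 2.98 RPM, and none of the markers of these other cell types passed the read limit. In such bulk libraries, fewer cells that express a gene cannot be told apart from less RNA per cell. 481 of the 8260 genes share intervals with another gene. At the limit of the rule the median share was 5.44% for 213 genes with 200 to 219 reads in the poorer library and 5.48% for 261 genes with 180 to 199.

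The median gene had a T>C share of 4.90% in the first and 4.68% in the second control library. In the second library, 10% of genes were below 2.06% and 10% above 11.5%. Against the share of all reads, edgeR called 1437 genes above, which is 17.4% of the 8260, and 2392 below, which is 29.0%, at an adjusted p under 0.05 and a log2 ratio of at least 0.5 in size. The log2 ratio compares the odds that a read of the gene is a T>C read with the odds over all reads, and its median over the genes was -0.28. The split between the directions depended on that reference. With TMM factors 1790 genes were above and 1669 below, and with the median gene as the reference 1979 and 1462. A list is therefore read here against all genes measured in the same way. Both control libraries lay on the called side for 1435 of the 1437 genes above and 2387 of the 2392 below. The calls were made from these same 2 libraries, so this count is a description and no second test. 758 genes above (9.18% of all) and 814 below (9.85%) were called the same way in every one of 14 alternative fits that tested them, and such genes are termed stable calls here. Some fits left genes out, such as those under 1000 reads or over 20% in share, and 387 of the 758 and 678 of the 814 were tested in all 14.

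Signalling feedback inhibitors, the genes that cells switch on to dampen a pathway, had the highest median T>C share of 37 functional lists, 8.41% ± 0.65 (SD of the library medians, n = 2) against 4.79% ± 0.15 for all genes. Of the 19 members measured, 8 were called above and 0 below, and 3 were stable calls. SPRY2, which restrains growth factor receptor signalling, had 23.7% of 389 reads and 23.6% of 292 reads converted. TRIB1, a pseudokinase that directs C/EBP proteins to degradation, had 18.1% and 24.2%. NFKBIZ, a regulator of the NF-κB response, had 12.6% and 16.1% (log2 ratio 1.46 ± 0.37 SE, edgeR adjusted p = 0.00034). The libraries of each of these 3 genes lay far above 5.70%. The lowest members, RNF43 and NFKBIB, were at 1.56% and 7.06% and at 3.30% and 3.31%, and neither passed the test. RNF43 shows how far libraries can part at about 440 reads.

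Immediate early genes came next, with a median share of 6.87% ± 0.09. They encode transcription factors and their relatives that cells induce within minutes of a stimulus. 10 of 24 were called above and 3 below, and 9 of those above were stable calls. MYC, the growth-promoting transcription factor that is central to the study (chr8:127735434-127742951 in hg38), had a T>C share of 11.9% of 1113 reads and 15.7% of 529 reads (log2 ratio 1.38 ± 0.24, edgeR adjusted p = 8.9e-08). JUNB, a subunit of AP-1, was at 18.5% and 24.3%, and JUN, its relative, at 9.44% and 10.7%. CEBPB was at 21.8% and 21.2%, and BTG1, an antiproliferative gene that also recruits deadenylases, at 20.4% and 19.9%. BTG1 combined this with 1387 RPM, so a high share was not restricted to scarce mRNAs. The smallest members were GADD45A with 3.99% and 2.51%, and IER2 with 2.97% and 3.74%. Both were called below, GADD45A at a log2 ratio of -0.85 and IER2 at -0.80, but neither was a stable call. Per covered T position GADD45A turned to 0.37.

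Developmental transcription factors of the HES, SOX, FOX and related families had a median of 6.29% ± 0.46, with 5 of 24 above and 4 below. These were 20.8% and 16.7% of the list, against 17.4% and 29.0% of all genes. HES1, the Notch target known for its oscillating mRNA, was at 11.3% and 15.8%, and FOXJ3 at 17.8% and 15.9%. At the other end HES4 was at 1.82% and 1.76%, a stable call below, and SOX2 at 1.32% and 2.42%. The list therefore held genes of both kinds, as did all genes. Not all lists of transcription factors had a high median. Core circadian clock and clock output factors were at 3.42% ± 0.44, with 1 of 7 above and 3 below. Prostate lineage factors were at 4.59% ± 0.13, with 2 of 17 above and 6 below. The clock list crossed to the upper side of all genes in 1 alternative fit and the prostate list in 2. G1 regulators, which set entry into the cell cycle, were at 5.93% ± 0.14 with 9 of 24 above and 4 below. CDKN1B, the inhibitor p27, was at 9.0% and 9.67%, CDKN1A, the inhibitor p21, at 9.72% and 9.48%, and the retinoblastoma relative RBL2 at 13.6% and 19.7%. Their counterpart CDKN2D was at 2.10% and 2.85%. CCND1, which encodes cyclin D1 and is one of the most abundant members at 2340 RPM, was at 5.71% and 5.52% and matched the whole library, with a log2 ratio of -0.01 ± 0.07.

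**Figure D1:**
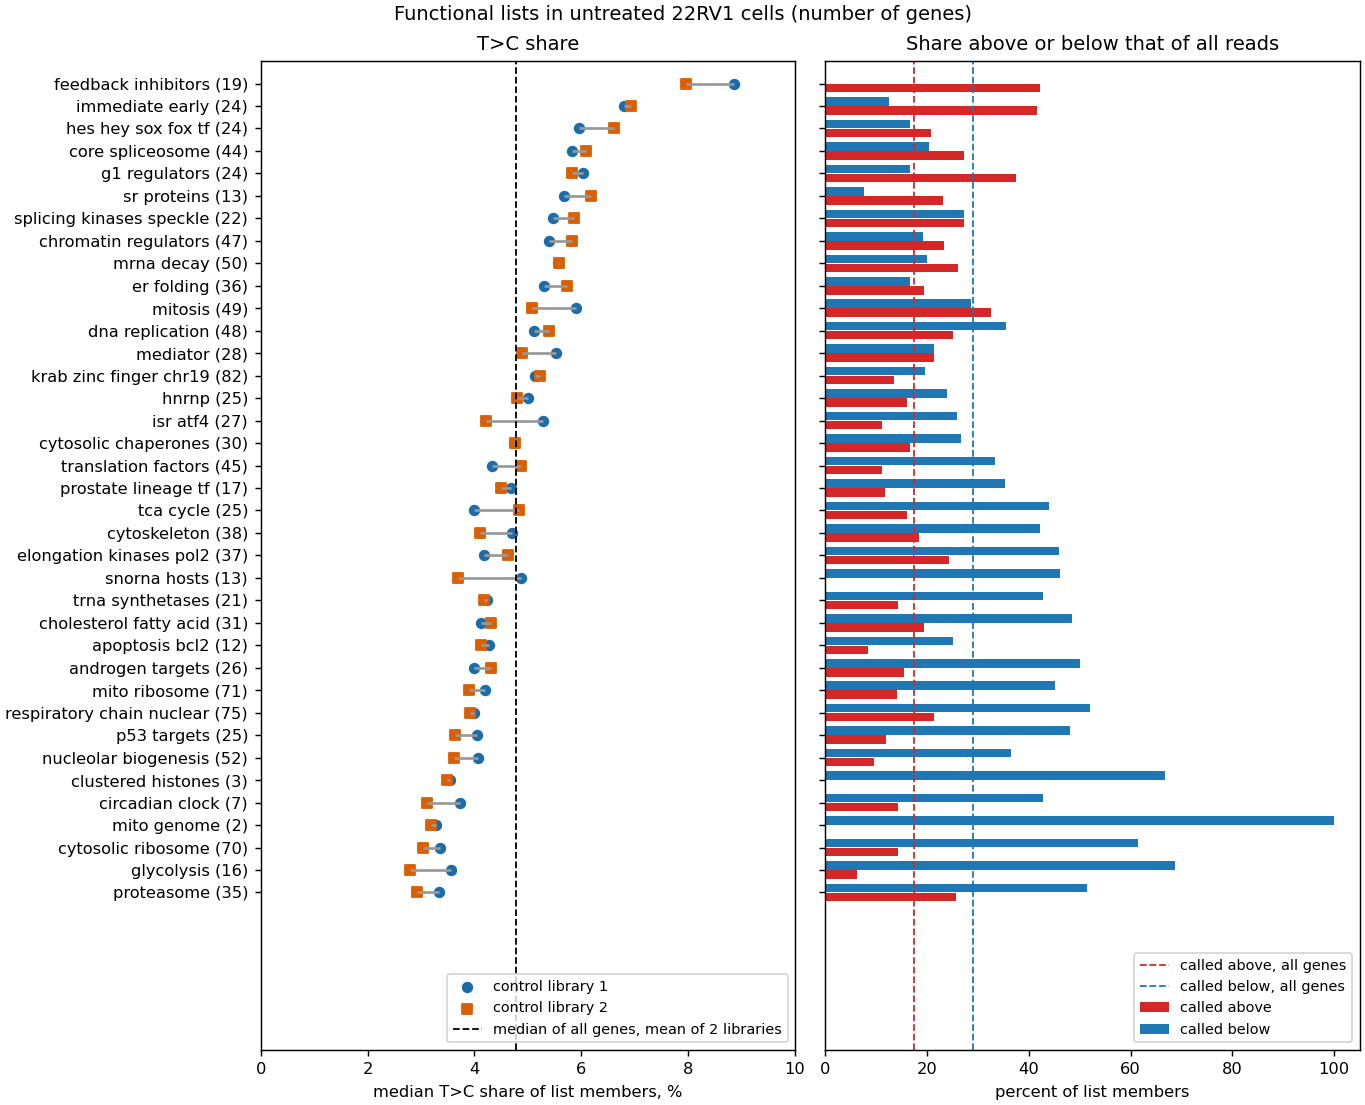
Left, the median T>C share (%) of the members of each functional list in control library 1 (circles) and 2 (squares), with the number of genes in brackets and the median of all genes as a dashed line. Right, the percentage of each list called above (red) or below (blue), with the percentages of all 8260 genes as dashed lines. Feedback inhibitors and immediate early genes lead, and proteasome, glycolysis and ribosome genes are lowest.

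Splicing genes had medians above all genes by share, but less so by conversions per covered T. Core spliceosome genes had a median of 5.96% ± 0.19 with 12 of 44 above and 9 below. These were 27.3% and 20.5% of the list, against 17.4% and 29.0% of all genes. U2AF2, which binds the polypyrimidine tract, was at 25.1% and 26.6%, while BUD31 was at 1.41% and 1.64%. SR proteins, the splicing factors that SRPK1 phosphorylates, had 5.92% ± 0.36 with 3 of 13 above and 1 below. SRSF9 was at 9.99% and 13.8%, and SRSF1 at 9.87% and 13.3%, though SRSF1 shares an interval with another gene. Splicing kinases and speckle genes had 5.67% ± 0.27, with 6 of 22 in each direction. There CCNL1, cyclin L1, was at 23.0% and 21.4%, and LUC7L at 2.86% and 3.17%. Genes of mRNA decay had 5.57% ± 0.01, with 13 of 50 above and 10 below, and the chromatin regulators had 5.61% ± 0.30, with 11 of 47 above and 9 below. PUM2, a Pumilio protein, was at 21.5% and 20.8%. TOB1, which brings deadenylases to mRNAs, was at 18.4% and 23.0%. Per 1000 covered T, core spliceosome genes had 2.10 and SR proteins 2.21 conversions against 2.10 for all genes, and SR proteins had 29.2 covered T per read. The hnRNP genes, further RNA-binding proteins of splicing, had a median share of 4.91% with 4 of 25 above and 6 below, and per covered T the list went to the lower side of all genes. Stable calls were 9 above and 4 below in the core spliceosome, and 3 above and 0 below among SR proteins.

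The lowest median of the lists belonged to the proteasome, the protease that degrades ubiquitin-tagged proteins, with 3.13% ± 0.29. 18 of its 35 measured genes were called below, all of them stable calls, and 9 above. PSMC3, an ATPase of its regulatory cap, was at 0.565% of 1416 reads and 0.989% of 1516 reads, a log2 ratio of -2.93 ± 0.34 (edgeR adjusted p = 1.4e-16). ADRM1, a ubiquitin receptor of the particle, was at 1.23% and 1.77%. The list was not uniform, as PSMA5 was at 23.2% and 24.7%. Against genes of like abundance, the proteasome median was 0.62 lower on the log2 scale, the largest such distance below among the 37 lists.

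Glycolytic genes had a median of 3.18% ± 0.53, with 11 of 16 called below and 1 above. GAPDH was at 1.18% of 56125 reads and 1.39% of 44418 reads, a log2 ratio of -2.21 ± 0.09. LDHB was at 2.63% and 2.40%, PKM at 3.47% and 2.16%, and ALDOA at 3.06% and 2.75%. The exception was SLC2A1, the glucose transporter GLUT1 that controls entry into the pathway, at 16.6% and 15.3%. Cytosolic ribosomal protein genes had 3.19% ± 0.23. 43 of 70 were below, 34 of them stable calls, and 10 were above. RPL35 was at 0.748% and 0.523% and RPL36 at 0.978% and 0.839%, while RPL38 was at 25.4% and 25.9%. Reads of ribosomal protein genes may be divided with their many processed pseudogenes, and their values are uncertain to that extent. These genes also had fewer T positions to convert, a median of 15.2 covered T per read against 24.9 for all genes. Per 1000 covered T positions they had 1.6 ± 0.06 conversions against 2.10 for all genes, so the list was on the lower side by this measure too.

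Other housekeeping lists were also low in median share. Of all genes, 29.0% were called below and 17.4% above. The mitochondrial ribosome had 4.05% ± 0.21 with 32 of 71 below and 10 above, the nuclear-encoded respiratory chain 3.95% ± 0.06 with 39 of 75 below and 16 above, and nucleolar biogenesis 3.84% ± 0.32 with 19 of 52 below and 5 above. Cholesterol and fatty acid synthesis had 15 of 31 below and 6 above. Against genes of like abundance, the medians of these lists were -0.21, -0.11, -0.33 and -0.05 on the log2 scale, in this order. Calls below also grew with abundance, to 44.3% in the most abundant of 10 equal groups of genes. The mitochondrial rRNAs, transcribed outside the nucleus, were at 2.59% and 2.39% (MT-RNR1) and 3.98% and 3.98% (MT-RNR2). MT-RNR2 alone held 3856577 reads of the first control library. Of the growth and stress programmes, the p53 targets had 12 of 25 below and 3 above, with a median of 3.84% ± 0.29. FDXR, a target in mitochondrial electron transfer, had 0 of 384 reads in the first library, which allows a share of up to 0.781%, and 1.5% in the second.

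The side of a list relative to all genes was also read in the treated cells. Feedback inhibitors, immediate early genes, HES, SOX and FOX factors, G1 regulators, core spliceosome genes and SR proteins lay above the median of the same genes in 8 of 8 treated libraries. Proteasome, glycolysis, cytosolic and mitochondrial ribosome, respiratory chain and nucleolar genes did so in 0 of 8. The order within a side was not the same, as immediate early genes had a higher median than feedback inhibitors under each of the 4 treatments. No difference between treated and control cells was tested here.

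Genes that the study names and that regulate prostate cells lay on both sides of all reads. MYC and SRSF1, given above, were called above. SRPK1, the kinase of SR proteins, was at 6.34% of 1403 reads and 11.5% of 719 reads, and was called above (log2 ratio 0.64 ± 0.24, edgeR adjusted p = 0.020), but DESeq2 did not call it. CDK12, the elongation kinase, was at 3.47% and 4.70%, just past the limit below (log2 ratio -0.50 ± 0.22, edgeR adjusted p = 0.041). Per covered T position the value of CDK12 turned to 0.12, so it is no stable call. HOXB13, the homeobox factor of prostate, was at 2.64% and 2.59% and was a stable call below. FOXA1, the pioneer factor, was at 4.71% and 4.80%, and VEGFA at 5.57% and 8.43%, neither of which passed the test. In the 26 androgen-regulated genes the median was 4.15% ± 0.22, with 13 below and 4 above, and 0 of these were stable calls. The list crossed to the upper side of all genes when conversions per covered T were used.

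**Figure D2:**
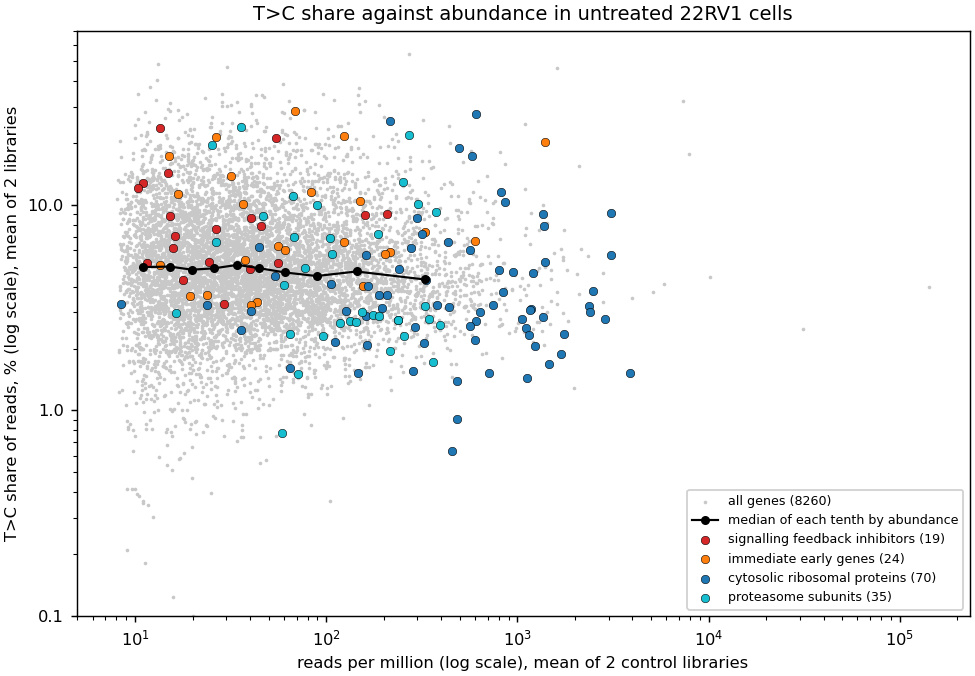
T>C share of reads (%, log scale; values under 0.1 are drawn at 0.1) against RPM (log scale), each the mean of 2 control libraries, for 8260 genes in grey. The black line joins the medians of 10 equal groups of genes by abundance and stays between 4.34% and 5.11%, with 4 lists in colour spread above and below it.

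Abundance and T>C share were nearly unrelated from gene to gene. Across the 8260 genes Spearman's rho of share with RPM was -0.0008 in the first and -0.05 in the second control library, a description across genes that come from the same libraries. Across the 37 lists, which share some genes, rho of the median share with the median RPM was -0.34, and with the median covered T per read 0.62. In 10 equal groups by abundance the medians lay between 4.34%, in the most abundant group, and 5.11%. Calls below made up 11.3% of the least and 44.3% of the most abundant group, and the reads on which the test rests grew alongside. At 200 reads a share of 5% has a Wilson 95% interval from 2.74% to 8.96%, and at 5000 reads from 4.43% to 5.64%. These intervals cover counting error only. Set against genes of like abundance, the list medians kept their ends, with feedback inhibitors 0.69 and immediate early genes 0.55 higher on the log2 scale, and cytosolic ribosomal proteins 0.47 and glycolysis 0.41 lower.

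The ends of the ranking came from many functions. Among protein-coding genes called above with at least 1000 reads, which also had to exceed all genes per covered T and the median gene in conversions per T>C read, LMNB2 led (chr19:2427638-2456959), a lamin of the nuclear envelope. Its share was 54.7% of 7418 reads and 53.8% of 6199 reads. RBAK was at 33.8% and 35.4%, the small GTPase ARF4 at 30.6% and 37.8%, the fatty acid oxidation enzyme ACADM at 31.0% and 33.7%, and thioredoxin, TXN, at 28.4% and 28.5%. NCAPH2, a condensin subunit, did not meet the filter on conversions per T>C read and had 36.9% and 40.2%. The immediate early gene IER5L, at 26.7% and 30.3%, was also among the 10 highest. Among the 10 lowest, next to PSMC3, RPL35 and RPL36, stood NDUFB7, a complex I subunit, with 0.552% and 0.169%, MRPS15 with 0.593% and 0.552%, and RNF40 with 0.850% and 0.986%. Only 3.52 T positions per read were covered in NDUFB7, and 36.1 in LMNB2. Libraries of each gene stayed close compared with the distance between the ends.

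**Figure D3:**
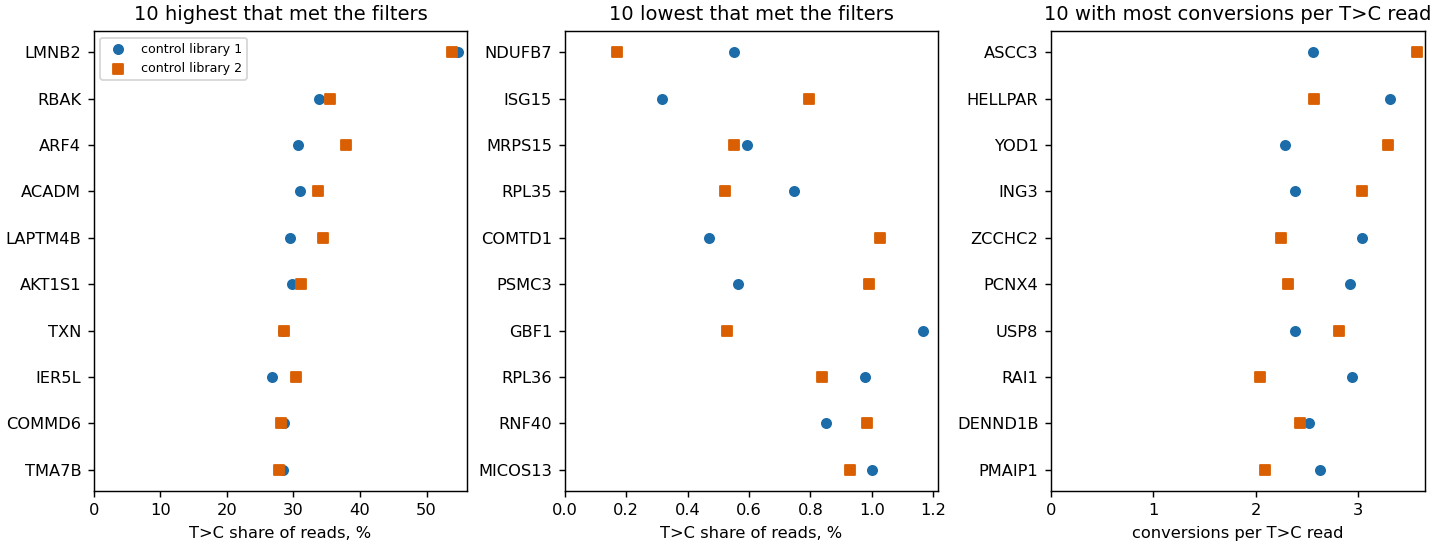
T>C share (%) of the 10 genes with the highest and the 10 with the lowest log2 ratio among genes that met the filters on reads and conversions, and conversions per T>C read of the 10 genes highest in that measure with at least 1000 reads, in control library 1 (circles) and 2 (squares). The highest shares lie between 26.7% and 54.7% and the lowest at 1.17% or under.

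Conversions per T>C read count how many T positions of such a read were read as C. The median gene had 1.02 in both libraries. In 109 genes with a share over 20% in both libraries the median was 1.03, and 0 of the 109 reached 1.5 in both. LMNB2 had 1.06 and 1.06, TXN 1.02 and 1.03, and RPL38 0.535 and 0.588. A value under 1 is possible because a read is counted whole while only conversions inside the interval are counted. NDUFB4, PSMA4 and MRPL13 had 0.128 and 0.093, 0.123 and 0.108, and 0.219 and 0.136 conversions per T>C read. In these 3 genes a share above that of all reads stood beside a conversion rate below it. Whether conversions outside the interval account for their low values was not tested. Of the 109 genes, 49 to 82 were also over 20% in each treated library, with medians from 19.3% to 23.0%. The source of such conversions was not tested.

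Many conversions per read marked a different set. Among 7282 genes with at least 10 T>C reads in both libraries, 271 had 1.5 or more conversions per T>C read in both, which is 3.72% of the genes. The limit of 1.5 was set after the data were seen. Their median share of 5.56% was close to the 5.12% of the other genes. Their median of conversions per 1000 covered T was higher, 4.85 against 2.23. Of the 271 genes, 32 were called above (11.8%) and 23 below (8.49%), against 17.4% and 29.0% of all 8260 genes. The sets were not matched for abundance. In conversions per T>C read, MYC had 2.97 and 3.69, and NFKBIZ reached 2.58 and 3.47. The apoptosis inducer PMAIP1 (2.63 and 2.09), the G protein regulator RGS2 (2.05 and 2.64), IFRD1 (2.05 and 2.46), the ubiquitin ligase subunit FBXO22 (2.32 and 1.94) and TXNIP, the inhibitor of thioredoxin (2.0 and 2.19), followed. The share of TXNIP was ordinary at 7.02% and 7.77%. Its partner in the cell, TXN, had the high share and few conversions, so the 2 measures ordered this pair in opposite ways in the control libraries. The share of TXN was lower in the treated libraries, from 9.78% to 19.3%, and this difference was not tested.

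Of the functional lists, immediate early genes had most members at 1.5 or more, 7 of 24 (29.2%), then 4 of 18 feedback inhibitors (22.2%), 5 of 23 HES, SOX and FOX genes (21.7%) and 11 of 72 zinc finger genes of chromosome 19 (15.3%), against the 3.72% of all genes. CEBPD, ZFP36L1, ZFP36L2, KLF6, ID2 and GADD45G joined MYC among the immediate early genes, and ZFP36L1 and ZFP36L2 encode proteins that destabilise AU-rich mRNAs. Long non-coding RNAs had 14.3%. Proteasome, cytosolic ribosome, respiratory chain, mitochondrial ribosome and glycolysis genes had 0 of 34, 69, 74, 69 and 14. The prostate factor FOXA1 (1.68 and 1.82) and CDK12 (1.68 and 1.93) passed the limit. SRPK1, SRPK2, SF3B1 and SRSF1 did not, with values from 1.0 to 1.09.

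**Figure D4:**
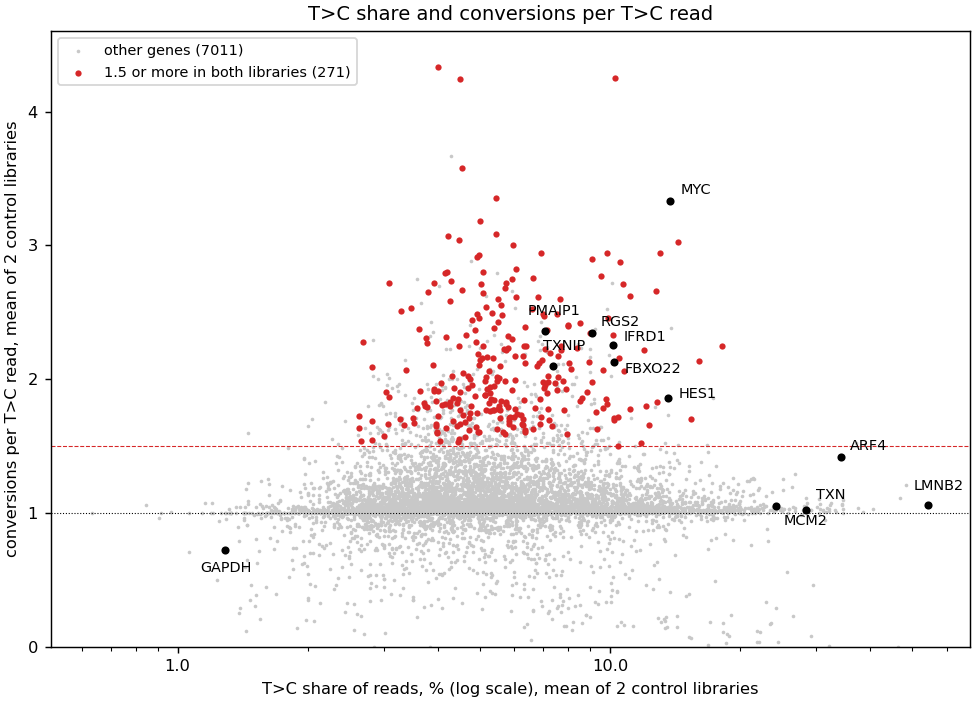
Conversions per T>C read against T>C share (%, log scale), means of 2 control libraries, for 7282 genes with at least 10 T>C reads in both. The 271 genes at 1.5 or more in both libraries (red) lie mostly at shares near 5%, while LMNB2, TXN and MCM2 combine shares over 20% with about 1 conversion per T>C read.

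The treated libraries, whose conversions took no part in the choice of the 271 genes, gave the measure again. In each of the 8, between 33.2% and 55.0% of the 271 genes that still had 10 T>C reads were at 1.5 or more, against 3.21% to 5.86% of the other genes. MYC ranged from 1.98 to 2.85 over the 8 libraries, PMAIP1 from 1.59 to 2.36, and both were at 1.5 or more in all 8. FOXA1 was so in 7 and CDK12 in 0 of 8. Across the control libraries, Spearman's rho over genes was 0.50 for conversions per T>C read and 0.76 for the share, and 0.88 for the share of 3734 genes with 1000 reads.

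**Figure D5:**
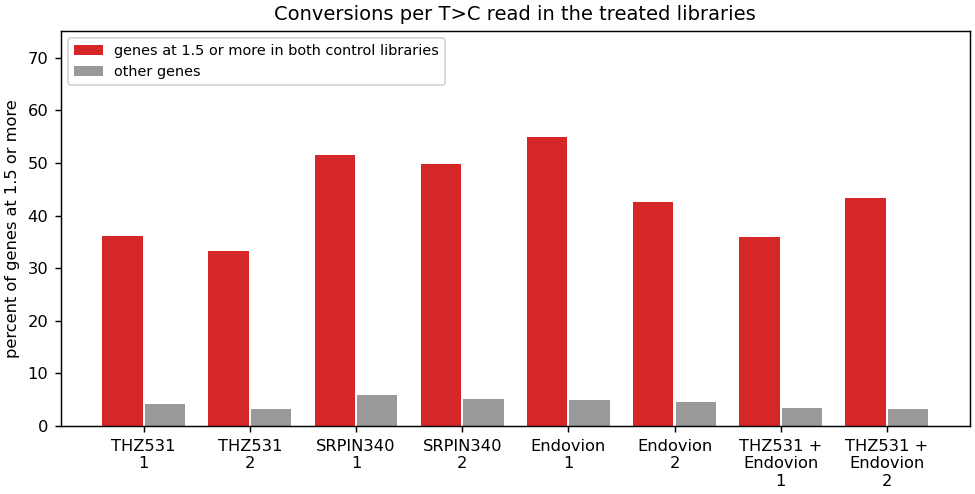
Percentage of genes at 1.5 or more conversions per T>C read in each of 8 treated libraries, for the genes at that level in both control libraries (red, 235 to 269 genes measured) and for the other genes (grey). Red bars lie between 33.2% and 55.0% and grey bars between 3.21% and 5.86%.

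Sequence and gene form went with the share only loosely. Genes spanning under 10 kb had a median share of 4.05%, with 42.8% called below, and genes over 200 kb 5.26%, with 16.5% below. Short genes also had fewer covered T per read, 22.0 against 26.6. From the lowest to the highest of 5 equal groups of genes by covered T per read, the median share went from 3.43% to 5.4% while conversions per 1000 covered T went from 2.0 to 1.89, so the T content of the sequenced ends moved with the share, and its part in the differences between lists was not tested. Intronless protein-coding genes, 95 in number, had 5.03% and long non-coding RNAs 4.68%, both near all genes. 13 mitochondrial tRNAs had 20.1% at 5.32 covered T per read. Among those over 20% in both libraries, MT-TW had 0.043 and 0.047 covered T per read, and MT-TG 0.049 and 0.042. Their conversions per T>C read were at most 0.0013 and 0.0019, and those of MT-TV 0.286 and 0.286. MT-TL2, MT-TI and MT-TS2 lay between 0.93 and 1.56. Whether conversions outside the interval account for the low values was not tested, so the 20.1% is not read here as fast labelling.

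Decay motifs were counted on the sense strand in the last 500 bases of the counted interval, in 6382 genes whose interval was that long. The AU pentamer ATTTA stood in 64.6% of all, 70.1% of genes called above, 56.2% of genes called below and 73.8% of those with 1.5 or more conversions. TATTTAT, which contains ATTTA, stood in 15.4%, 16.6%, 12.1% and 19.4%, and the Pumilio motif TGTANATA in 15.1%, 18%, 12.6% and 20.6%. The nonamer TTATTTATT, which contains both AU motifs, was in 2.88% of all, 2.26% of those above and 2.89% of those below. Genes with ATTTA had 26.5 covered T per read and genes without it 23.9, so motif and T content moved together. A motif match is a description of the sequence and not a shown site. The 3 genes with at least 1000 reads and 1.5 or more conversions that hold the nonamer are PMAIP1 (chr18:59903961-59903989, plus strand), NDEL1, a dynein regulator (chr17:8468004-8468032, plus strand), and ZFP36L1 (chr14:68788077-68788105, minus strand). Each match is shown in sense direction from hg38, in lower case with 10 bases on either side and the nonamer in capitals.

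PMAIP1: aggaataattTTATTTATTttgcctattt

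NDEL1: tttgtagcttTTATTTATTcagaacgcat

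ZFP36L1: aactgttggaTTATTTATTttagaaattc

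Within the searched 500 bases the matches lay 138 bases from the end of the interval in NDEL1, 327 in PMAIP1 and 427 in ZFP36L1. The shares of these genes were 6.30% and 7.88% in PMAIP1, 5.56% and 6.18% in ZFP36L1, and 2.92% and 3.16% in NDEL1. NDEL1 was called below, while PMAIP1 (log2 ratio 0.34) and ZFP36L1 (0.05) were not called in either direction.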

How the data were processed

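3′ end SLAM-seq libraries of 22RV1 cells were analysed. The authors ran SLAM-DUNK on the raw reads, and its tables were deposited with whole-number counts per 3′ UTR interval that were not normalized: all reads, the T>C subset, converted T and T positions covered. The submitters' notes also list Bowtie2 2.3.4.1, SAMtools 1.6 and DESeq2 1.38.2. Libraries carried molecular identifiers. Whether counting used them, the masking of known differences and the conversions a read needed are not given in the sources used here.

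Of 104653 intervals, 92826 matched GENCODE v44 (hg38). Within a gene the best-covered of overlapping intervals, by reads summed over all 10 libraries, was kept, which gave 31015 genes. 3.53% of T>C reads lay on unmatched intervals and were left out. Mapped reads were 52750599 and 44185300.

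T>C and other reads of both control libraries were fitted with edgeR 4.0.16 (robust quasi-likelihood, R 4.3.3), with library as a block and column totals as the reference. 1 residual degree of freedom remained, and the spread came from a trend shared by all genes. The labels do not say whether the replicates are separate cultures, so p-values rest only on the spread between these libraries. For the typical gene its own spread between them had almost no weight. SDHB, at 11.0% and 25.5%, still had an edgeR adjusted p of 3.6e-20. The SE beside a log2 ratio was derived from the test statistic and has the same limit. On simulated counts of the same genes, 78% to 82% of genes with a log2 ratio of 1 in size and 34% to 48% at 0.7 were called. The simulation held 50 genes at each log2 ratio and set all others to the share of all reads. Far more genes were called in the data, so the rates may differ there. Alternatives included DESeq2 1.42.0.

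Genes named are the 10 highest and 10 lowest by log2 ratio among called protein-coding genes with 1000 reads that lay on the same side per covered T (the highest also at or above the median in conversions per T>C read), the 2 ends of each list, genes the study names and cell type markers. Other genes were chosen after their values were seen. Members and lists were chosen with earlier results of these data known. Some genes named by this rule are not reported here.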

Additional observations from a re-analysis of the deposited data

How the results depend on the processing

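Each count was recomputed under 14 other fits and with a log2 limit of 1. Genes above and below numbered 854 and 1357 with the limit of 1, and 682 and 1511 of 3734 genes with a minimum of 1000 reads. The median gene as the reference left 1462 below. The other fits stayed within 1.5 times of 1437 above and 2392 below, with 1152 and 1634 by DESeq2 and 1227 and 1725 per covered T. Leaving out one control library in turn, in a fit with the treated libraries, gave 1195 to 1268 above and 1809 to 1991 below. Without the replicate block the counts were 1291 and 1961. Library and replicate number are the same here, and no pairing between groups was used. Totals without mitochondrial genes, an alternative chosen after the data were seen, gave 1439 and 2311. The correlation of share with abundance went from -0.025 to -0.069 per covered T, where the cause was not tested.

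Of 37 lists, 23 stayed on their side of the median of all genes in all 14 fits, 10 above and 13 below, and 14 crossed in at least 1 fit. Fits that changed only the reference, such as TMM factors or the median gene, shift all genes nearly alike. They could therefore hardly move a list across. Mitosis, DNA replication, hnRNP, Mediator and ER folding genes crossed per covered T. Per covered T, 11 named genes also turned: CDK12 to 0.12, EHF to 0.33, GADD45A to 0.37, H4C3 to 0.79, MRPL13 to -0.85, MYL12A to -0.86, NDUFB4 to -1.16, NHP2 to -1.09, NUPR1 to 0.066, POLD1 to -2.94 and PSMA4 to -0.77. Several of these have few covered T positions or under 1 conversion per T>C read inside the interval. Between control libraries the SD of the log2 share was 0.67 for 4526 genes under 1000 reads in the poorer library and 0.16 for 741 genes at 5000 or more, so depth limits the calls for scarce mRNAs.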
